A study of Psammomys obesus with 8 samples.

Results

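The regions described here are 3161 assembled contigs of the fat sand rat, *Psammomys obesus*, whose best mouse match lies in a gene desert, out of 548060 contigs in the table. They were chosen by 3 fields of the contig name, namely a distance of at least 200000 bases to the nearest mouse gene, a match score of at least 100 bits, and a mouse chromosome other than MT, X or Y. Of the 208043 contigs with a mouse match and a nearest gene, 4752 met the distance, 3167 of these also met the score, and 3161 were autosomal. No count entered the choice. The desert contigs were 0.577% of the table and 2.14% of the 147826 autosomal contigs with a match of at least 100 bits.

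All 8 libraries came from the hypothalamus of male offspring at 16 weeks of age. They form 2 groups of 4, called low-low and standard-low after the sample titles, with the diet given as low lipid for the first and standard lipid for the second, and the deposited design names paternal diet as the difference. Which relative each diet word of the titles refers to is not given in the labels, and nothing in them says that replicates came from separate fathers or litters, so p-values measure the spread between these samples, which may be technical. Methylated fragments were enriched with MethylMiner, which captures double-stranded DNA through the methyl-CpG binding domain of MBD2, and the captured DNA was sequenced and counted per contig. Totals over all contigs ran from 11646180 to 13533441 counts per library, and the desert contigs took 0.524% to 0.607% of them. Values are given as CPM, counts scaled by the library total and a TMM factor, or as CPM per kilobase of contig. A difference in captured DNA within cells and a difference in the mix of cell types cannot be told apart in whole tissue.

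Gene deserts are long stretches of a chromosome without genes. Some of them flank regulators of development and hold conserved noncoding elements, among them enhancers that act on a distant gene, while others show little conservation. Most CpG sites of such DNA are methylated in mammalian tissues, and methylated cytosine is prone to mutate to thymine, so this DNA has lost much of its CpG over evolution. Capture by a methyl-CpG binding protein depends on how many methylated CpG a fragment carries.

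These sequences were chosen to show a range of the captured desert contigs. Each is a whole contig or the 200 bases of it with most CpG, read 5′ to 3′ as assembled, with every CpG in capitals. Mouse positions are those of the match in the table, which need not include the bases shown, and the sources used here do not give the mouse build. Contig 233920 lay farthest from a gene, 1100918 bases from a copy of U1, matched to chr14:81282948-81283448 on the plus strand, with bases 318 to 517 shown. Contig 4550768 had the most captured DNA per kilobase, matched to chr6:109505298-109505397 on the plus strand, 645942 bases from Edem1. By background knowledge its sequence resembles a multicopy ribosomal RNA gene, as described below, so it may not be desert DNA. Contig 1343754 came next, matched to chr14:110971014-110971275 on the plus strand, with bases 648 to 847 shown. Its match spanned only 29.6% of the contig length. Contig 1845263 was among the 4 with most captured DNA per kilobase and holds TAATTA, matched to chr1:194211930-194212064 on the minus strand. Contig 2695913 had the lowest p of all desert contigs, matched to chr12:6638902-6639368 on the plus strand, with bases 22 to 221 shown. Contig 4220448 was among the 4 lowest p for a decrease, matched to chr15:88203147-88203486 on the plus strand, with bases 44 to 243 shown. Contig 4573805, singled out after its values were seen, was the only desert contig without a CpG, matched to chr6:74769162-74769256 on the plus strand.
contig 233920: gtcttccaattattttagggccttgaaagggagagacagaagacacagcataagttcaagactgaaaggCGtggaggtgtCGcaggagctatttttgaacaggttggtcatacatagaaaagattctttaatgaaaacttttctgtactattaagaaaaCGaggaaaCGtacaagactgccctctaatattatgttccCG
contig 4550768: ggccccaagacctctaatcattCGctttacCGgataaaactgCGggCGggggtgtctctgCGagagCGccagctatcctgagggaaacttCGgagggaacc
contig 1343754: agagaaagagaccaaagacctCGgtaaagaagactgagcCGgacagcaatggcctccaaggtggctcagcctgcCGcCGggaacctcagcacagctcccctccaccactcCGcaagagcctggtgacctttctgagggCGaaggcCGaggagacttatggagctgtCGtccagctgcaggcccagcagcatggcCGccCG
contig 1845263: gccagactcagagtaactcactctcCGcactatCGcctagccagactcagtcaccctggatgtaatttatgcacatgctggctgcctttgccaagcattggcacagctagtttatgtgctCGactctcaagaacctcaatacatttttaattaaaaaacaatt
contig 2695913: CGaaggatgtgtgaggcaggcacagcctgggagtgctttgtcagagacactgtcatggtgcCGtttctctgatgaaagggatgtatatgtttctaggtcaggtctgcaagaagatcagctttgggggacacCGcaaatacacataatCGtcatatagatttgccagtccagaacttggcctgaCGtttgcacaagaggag
contig 4220448: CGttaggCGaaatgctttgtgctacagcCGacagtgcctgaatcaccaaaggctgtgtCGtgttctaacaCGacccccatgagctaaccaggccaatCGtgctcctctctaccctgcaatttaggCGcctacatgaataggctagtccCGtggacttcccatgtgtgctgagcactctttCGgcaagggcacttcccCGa
contig 4573805: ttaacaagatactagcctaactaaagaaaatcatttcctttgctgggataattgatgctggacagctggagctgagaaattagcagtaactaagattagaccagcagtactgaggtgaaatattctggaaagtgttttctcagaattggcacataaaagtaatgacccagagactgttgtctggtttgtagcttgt

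The desert contigs were close in length to other matched contigs of at least 100 bits, with less GC and fewer CpG per base than contigs inside genes. Their length ran from 101 to 3210 bases with a median of 542. The median length was 528 for the 96400 contigs inside genes and 442 over all contigs. It was 553 for the 48265 contigs outside genes but within 200 kb of one. Coverage was taken as the mouse span of the match, capped at the contig length, over the contig length. Its median was 81.2% in deserts, 76.3% inside genes and 62.2% outside genes but within 200 kb of one. In 1291 desert contigs, 40.8%, the match covered at least 90% of the contig. The median GC content was 45.2% in deserts and 50.2% inside genes, and the median CpG content was 1.98 and 2.32 CpG per 100 bases. The median ratio of observed to expected CpG was 0.402 in deserts and 0.383 inside genes, so relative to base composition the deserts were not the poorer. In 2995 of the desert contigs, 94.7%, that ratio was below 0.6.

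Most desert contigs, 2024 of the 3161, shared no 25-base word with any other contig of the table on either strand. Of the rest, 360 shared one with 1 to 10 others, and 254 shared one with more than 1000, up to 26820. The share of contigs with any such word was 36.0% in deserts, 34.8% inside genes and 50.7% outside genes but within 200 kb of one. Words of this length are shared by copies of interspersed repeats and also by assembled contigs that overlap at their ends. Of the desert contigs, 137 overlapped the mouse position of the one before them, so they are not all separate sites.

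The desert contigs lay in 498 blocks when neighbours less than 400 kb apart were joined, a distance that leaves no room for a gene between contigs that are each 200000 bases or more from one. This grouping was added after the data were seen. The median block held 4 contigs, 123 blocks held 1, and the 92 blocks with at least 10 held 1822 contigs, 57.6% of all. The fullest block held 69 contigs over 921 kb of mouse chromosome 1 from 41105564 to 42026629, with the predicted genes Gm9915 and AC101702.1 nearest. The next held 59 contigs from 75842653 to 76934236 on the same chromosome, beside Gm5257 and a copy of 5S rRNA. A block of 52 contigs from 108061230 to 108514200 on chromosome 8 lay next to Zfhx3, a homeobox zinc finger transcription factor, and a block of 51 from 5526502 to 6598028 on chromosome 16 lay next to Rbfox1, a neuronal splicing regulator. The block of 49 contigs on chromosome 7 lay beside Mki67, which encodes the proliferation antigen Ki-67. Further full blocks lay beside Efnb2, encoding the ligand ephrin-B2, with 39 contigs, and beside Zfp703, a zinc finger regulator, with 40. The median CPM per kilobase of a block ran from 2.09 to 3.71 over the 92, and it was 2.54 in the fullest block, 2.85 beside Gm5257, 2.64 beside Zfhx3, 2.71 beside Rbfox1, 2.68 beside Mki67, 2.84 beside Zfp703 and 2.72 beside Efnb2.

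A gene in this table is any entry of the mouse annotation used, including small RNA copies. Of the desert contigs, 937 or 29.6% had a small RNA such as SNORA17, U6 or 7SK as nearest gene, and 805 or 25.5% a predicted or clone-based gene. The 734 distinct nearest genes included 14 of 112 listed developmental regulators, next to 115 contigs, and 23 of 89 listed neuronal adhesion and guidance genes, next to 82 contigs. Both lists were drawn up with earlier results of these data known. Zfhx3 had 25 desert contigs, Irx1, an Iroquois homeobox factor, had 15, and its neighbours in the same gene family Irx4 and Irx2 had 9 and 6. Tshz3, a teashirt zinc finger factor, had 15, Maf, a basic leucine zipper factor, 9, and Sox6, an HMG-box factor, 8. On the adhesion list, Unc5d, a netrin receptor gene, had 14, Kirrel3, an immunoglobulin-family adhesion gene, 8, and the contactin-associated gene Cntnap4 and the Slit receptor gene Robo1 had 7 each.

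The sequences beside the 2 lists differed in their likeness to mouse. The median contig was covered by its match over 89.1% of its length beside the developmental regulators and over 57.3% beside the adhesion genes. The share without a common 25-base word was 74.8% beside the regulators and 42.7% beside the adhesion genes. These are descriptions of the contigs, with no test, and contigs of a block share a locus. In the middle 200 bases of contigs at least that long, the homeodomain core TAATTA was found in 218 of 3137 desert contigs, 6.95%, against 3.23% inside genes and 3.42% of all contigs. Outside genes but within 200 kb of one it was found in 5.16%, and at 100 to 200 kb in 6.34%. The higher share was thus not particular to deserts. TAATTA was present in 9.57% of contigs beside the regulators and 2.44% of those beside the adhesion genes. These shares rest on few contigs, with 3 beside Zfhx3, 2 each beside Irx4 and Maf, and at most 1 beside any other listed regulator. On the adhesion list there was 1 beside Unc5d and 1 beside Robo1. GC content was not compared between the lists. The motif is its own reverse complement, so a match counts for both strands, and it is rich in A and T. Among contigs of 45% to 50% GC it was found in 4.80% of desert contigs, 3.86% of contigs inside genes and 3.43% of all contigs. Below 40% GC the shares in deserts and inside genes were 12.9% and 10.1%. At 40% to 45% GC they were 9.0% and 6.53%, and at 50% GC or more 2.4% and 1.30%.

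The octamer ATTTGCAT, which POU factors bind, was found on either strand in 49 desert contigs, 1.56%, against 0.723% inside genes and 0.861% of all. Outside genes but within 200 kb of one its share was 1.26%. The E-box CACGTG, which contains a CpG, was found in 4.40% of desert contigs, 5.46% inside genes and 6.74% of all. The cAMP response element TGACGTCA was found in 7 desert contigs, 0.223%, against 0.303% inside genes and 0.30% of all. The last 2 motifs are also their own reverse complements, and none of the 4 contains another. A match is only a run of letters and not a bound site.

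Less DNA was captured per kilobase from desert contigs than from contigs inside genes, in every library. The library medians over desert contigs were 2.67, 2.67, 2.61 and 2.70 CPM per kilobase in low-low 1 to 4 and 2.76, 3.03, 2.58 and 2.75 in standard-low 1 to 4. Over contigs inside genes they were 3.50, 3.56, 3.57 and 3.54 in low-low and 3.50, 3.34, 3.62 and 3.44 in standard-low. The difference of medians was -0.37 ± 0.11 on the log2 scale (SD, n = 8 libraries, pseudocount 0.01; exact sign-flip permutation p = 0.00781, two-sided, the smallest that 8 libraries allow), a ratio of 0.775. It ran from -0.49 in standard-low 3 to -0.14 in standard-low 2. The libraries share the same contigs, so this p says only that the sign held in all 8.

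The level changed with distance in steps. The mean of the library medians was 3.51 CPM per kilobase inside genes, 3.10 within 10 kb, 2.86 at 50 to 100 kb, 2.78 at 100 to 200 kb, and 2.71, 2.75 and 2.70 in the desert classes that start at 200, 300 and 500 kb. The 3 desert classes did not differ beyond their ranges over libraries. Against contigs outside genes but within 200 kb of one the difference was -0.13 ± 0.059 (SD, n = 8; exact sign-flip permutation p = 0.00781), and in standard-low 2 it was only -0.0024.

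CpG content followed part of this course. Of the desert contigs, 38.5% had 1.5 to 2 CpG per 100 bases and 6.17% had 3 to 4, against 24.7% and 15.5% inside genes. Between contigs of the same CpG class, weighted by the desert contigs, the difference was -0.21 ± 0.074 on the log2 scale (SD, n = 8; exact sign-flip permutation p = 0.00781). With classes of both CpG and GC content, an alternative added after the data were seen, it was -0.14 ± 0.035, negative in all 8 libraries. At 2 to 2.5 CpG per 100 bases the mean of library medians was 3.48 CPM per kilobase inside genes, 2.99 in the first desert class and 3.21 at 500 kb or more, the last from 73 contigs. The table lists no contig with fewer than 81 counts summed over libraries among the desert contigs, and regions captured less than that are not seen. No input DNA was used here, so captured DNA per kilobase is not a methylation level.

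**Figure D1:**
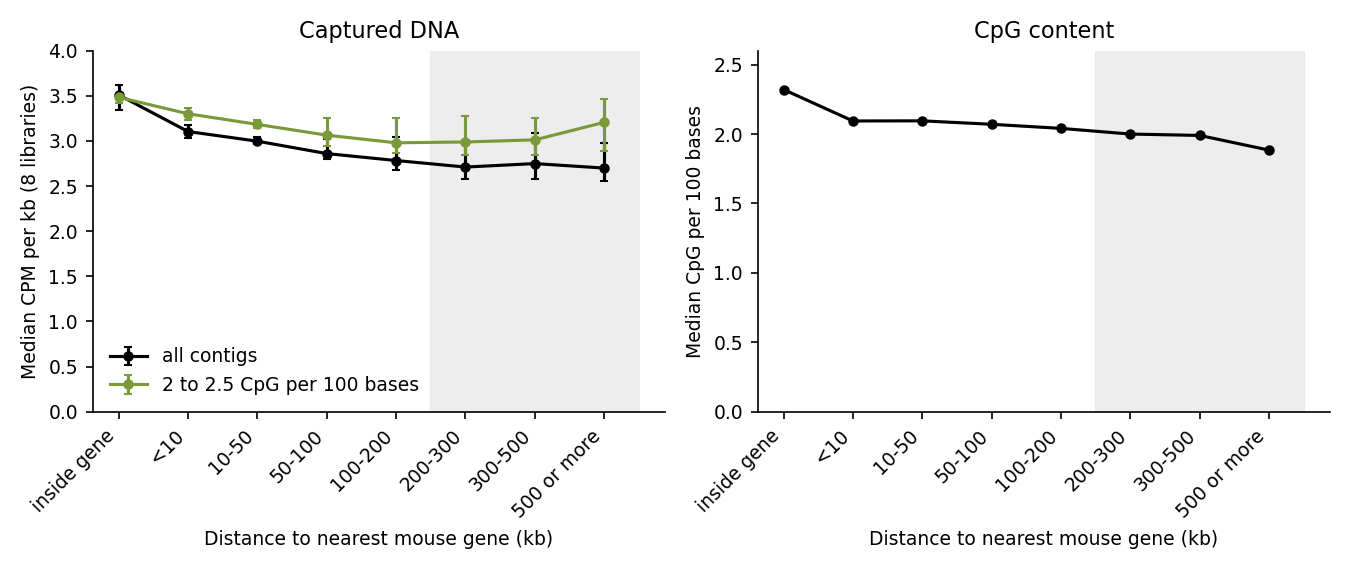
Median CPM per kilobase (left; points, mean of the 8 library medians, bars, lowest to highest library) and median CpG per 100 bases (right) against distance to the nearest mouse gene in kb, for autosomal contigs with a match of at least 100 bits; the grey band marks the desert contigs. Captured DNA falls from 3.51 inside genes to 2.70 at 500 kb or more, and the line for contigs of 2 to 2.5 CpG per 100 bases falls less.

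A few desert contigs stood far above the rest per kilobase. Contig 4550768, of 101 bases with 7 CpG, reached 29.9 CPM per kilobase over the 8 libraries. By background knowledge its sequence, printed above, resembles the large-subunit ribosomal RNA gene, a multicopy gene, although no ribosomal reference was used here. Contig 1343754, 215865 bases from Slitrk6, a neuronal transmembrane gene, had the highest counts. It held 233, 290, 191 and 218 counts in low-low 1 to 4 and 237, 197, 223 and 163 in standard-low 1 to 4, or 17.9 ± 2.66 and 17.3 ± 2.78 CPM (SD, n = 4). The groups overlapped (edgeR adjusted p = 0.986). Contig 472714 reached 14.1 CPM per kilobase with 1 CpG in 102 bases, and contig 1845263, beside the semaphorin receptor gene Plxna2, 10.9 with 3 CpG in 163 bases. These contigs held only 12 to 24 and 13 to 30 counts per library, near the desert median of 16.9, so their values per kilobase reflect their short length. Every contig of the table had a mean of at least 10 counts, so contigs this short are listed only at a high CPM per kilobase. The lowest desert contig had 0.892 CPM per kilobase.

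The contigs farthest from any gene were captured at low to middling levels. Contig 233920 had 1.45 CPM per kilobase, with 13, 12, 8 and 22 counts in low-low and 8, 11, 4 and 8 in standard-low, so the groups overlapped (edgeR adjusted p = 0.888). Contigs 2933796 and 3471385, 1036905 and 1029918 bases from a copy of U6 on chromosome 10, had 2.07 and 1.41, and contig 1525413, 1029052 bases from Olfm4, had 2.52. These last 3 shared a 25-base word with 882, 1276 and 411 other contigs, so their reads may be divided among copies, whereas contig 233920 shared none. The match covered 22.7%, 11.9% and 29.7% of the last 3, against 85.1% of contig 233920. Their distance to a gene thus rests on a small part of each contig.

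No desert contig passed the test between diets. At an adjusted p of 0.05 edgeR's quasi-likelihood test called 0 of 3161, against 0.0268% of all contigs, or 0 higher and 0 lower in standard-low against 0.0203% and 0.00657%, and DESeq2 and limma voom also called 0. The lowest edgeR adjusted p was 0.318. At an unadjusted p under 0.05 there were 163 desert contigs with edgeR, 5.16% against 5.68% of the table, 59 with DESeq2 against 2.28%, and 162 with voom against 5.56%. On simulated counts the edgeR test recovered 2% of contigs changed 1.5-fold, 32% of those changed 2-fold and 82% of those changed 4-fold. The simulated spread was assumed and not fitted to these libraries, and the changed contigs were drawn from the whole table. Under that setting most changes of 2-fold or less in single contigs were missed, and the share missed among desert contigs was not measured. Per library, the median desert contig held 16.9 counts on average.

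The signs leaned towards standard-low. Of the 163, 127 were higher in standard-low, 4.02% of desert contigs against 2.93% of the table, and 36 were lower, 1.14% against 2.76%. Contigs outside genes but within 200 kb of one leaned the same way, with 3.10% higher and 2.13% lower. Among those at 100 to 200 kb, 3.79% were higher and 1.75% lower, so the lean was not particular to deserts. The groups did not overlap at 70 contigs that were higher in standard-low, 2.21% against 1.63% of the table, and at 30 that were lower, 0.949% against 1.61%. The median log2 fold change was 0.05 over the desert contigs, 0.043 at 100 to 200 kb, 0.0017 over all contigs and -0.023 inside genes. Standard-low 2 carried much of this lean. Without it 89 desert contigs were higher and 62 lower at that level, or 2.82% and 1.96% against 2.73% and 2.69% of the table, and the median fell from 0.05 to 0.012.

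The summed counts gave the same picture. The desert contigs summed to 5406, 5424, 5324 and 5496 CPM across the low-low libraries and to 5544, 5968, 5279 and 5528 across the standard-low libraries. Standard-low 2 was the highest library and standard-low 3 the lowest, and the groups overlapped. The group means were 5412 ± 70.3 and 5580 ± 286 CPM, with n = 4 and SD, and their ratio was 1.03 (exact permutation p = 0.343, two-sided, and 0.522 after Benjamini-Hochberg adjustment over 8 sums and ratios, where 0.0286 is the smallest p that 4 against 4 can give). Without standard-low 2 the ratio was 1.01. Without standard-low 3 the log2 ratio rose from 0.044 to 0.0696 and the groups separated (exact permutation p = 0.0286, unadjusted). The sums of the 3 desert classes had ratios of 1.03, 1.03 and 1.04 with increasing distance.

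Contigs inside genes went the other way in the same libraries, with 205251 CPM in standard-low 2 and 230032 in standard-low 3 and means of 224109 ± 2223 for low-low against 217282 ± 10291 for standard-low (n = 4, SD; exact permutation p = 0.257). The log2 ratio of desert to inside-gene counts was -5.37 ± 0.028 for low-low and -5.28 ± 0.14 for standard-low, a difference of 0.09 (exact permutation p = 0.286, adjusted 0.522). Without standard-low 3 it was 0.14 (p = 0.0286, exact permutation), and without standard-low 2 the ratio of the groups fell from 1.06 to 1.02.

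**Figure D2:**
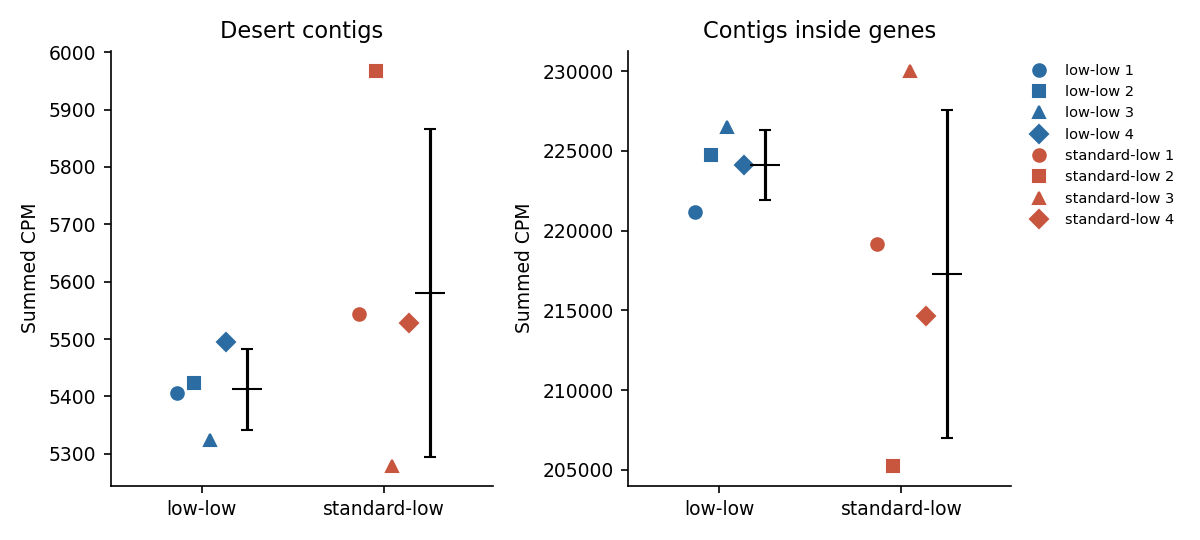
Summed CPM in each library (symbols by replicate number, black bars the mean ± SD of 4) for desert contigs (left) and contigs inside genes (right); the vertical axes do not start at 0. Standard-low 2, at 5968, is the highest for desert contigs and, at 205251, the lowest for contigs inside genes.

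The lean moved with CpG content. Among desert contigs with 1 to 1.5 CpG per 100 bases the summed CPM had a ratio of 1.11 between standard-low and low-low, at 1.5 to 2 it was 1.06, at 2 to 2.5 it was 1.01, at 3 to 4 it was 0.969 and at 4 or more 0.949. Without standard-low 2 these ratios were 1.09, 1.04, 0.983, 0.96 and 0.973, so the class of 2 to 2.5 changed direction. The whole table had the same course, from 1.07 at 1 to 1.5 to 0.896 at 4 or more. Low-low 1 leaned the same way. Its desert contigs had 464 CPM at 1 to 1.5 against a low-low mean of 443, and 418 against 446 at 3 to 4. Standard-low 3 did not share this course over all contigs, with 52837 CPM at 4 or more against 46162 to 51891 in low-low. Among the 1217 desert contigs with 1.5 to 2 CpG per 100 bases the sums were 1887, 1815, 1811 and 1852 CPM for low-low 1 to 4 and 1934, 2090, 1804 and 1999 for standard-low 1 to 4. Standard-low 1, 2 and 4 were above all low-low libraries, and standard-low 3 was below them. At 2 to 2.5 CpG per 100 bases standard-low 2 had 1972 CPM from desert contigs, against 1761 to 1836 in low-low, while its sum over all contigs of that class, 294970 CPM, lay within the low-low range of 293881 to 295030. The part of the library and of CpG content in the lean was not tested.

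**Figure D3:**
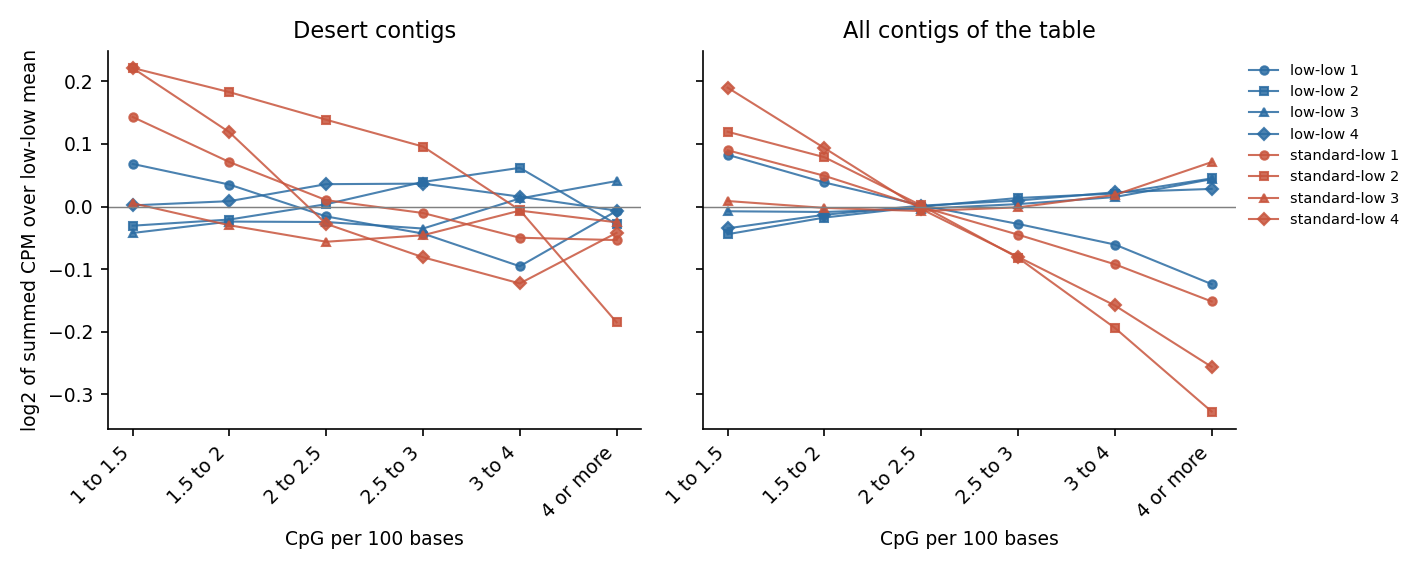
Log2 of the summed CPM of each library over the low-low mean, by class of CpG per 100 bases, for desert contigs (left) and all contigs (right); 9 desert contigs below 1 CpG per 100 bases are left out. Low-low 1 and standard-low 1, 2 and 4 are lower at 3 to 4 than at 1 to 1.5 in both panels. Standard-low 2 lies at 1972 CPM, above the other 7 libraries, for desert contigs at 2 to 2.5.

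Single contigs with the lowest p are given as values, since none passed the adjusted threshold. Contig 2695913, of 472 bases, had a coverage of 98.9% and shared no 25-base word. It had 8, 7, 6 and 2 counts in low-low and 12, 17, 9 and 21 in standard-low. The groups did not overlap, at 0.442 ± 0.20 against 1.25 ± 0.452 CPM (n = 4, SD). Its log2 fold change was 1.47 ± 0.38 (SE; edgeR adjusted p = 0.318). Contig 4428862, 307673 bases from Olfm4, had 5, 6, 7 and 6 counts in low-low and 14, 18, 16 and 9 in standard-low, again apart (log2 fold change 1.36, adjusted p = 0.428). Contig 610257 had 9, 4, 7 and 9 counts against 29, 9, 16 and 10, where standard-low 1 alone was well above the rest (1.26, adjusted p = 0.564), and without that library the log2 fold change was 0.80. The ribosomal-like contig 4550768 had 36, 34, 27 and 23 against 45, 51, 34 and 47, with a log2 fold change of 0.69 and an adjusted p of 0.564.

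Among those lower in standard-low, contig 1536622 had 35, 41, 35 and 44 counts in low-low and 23, 10, 29 and 26 in standard-low (log2 fold change -0.68, edgeR adjusted p = 0.739). The groups were apart, with standard-low 2 the lowest, but the match covered only 14.7% of the contig, which shared a 25-base word with 714 others. Without standard-low 2 its log2 fold change was -0.44. Contig 884256, 226968 bases from mir-410, a microRNA of the imprinted Dlk1-Dio3 cluster, had 48, 68, 62 and 78 counts against 42, 38, 48 and 35, and low-low 1 and standard-low 3 overlapped (-0.52, adjusted p = 0.751). Contig 2890871 had 31, 45, 25 and 41 counts against 22, 24, 19 and 18 (-0.64, adjusted p = 0.782). Contig 4220448, whose coverage was at the cap of 100%, had 14, 18, 22 and 16 against 10, 10, 6 and 8, with the groups apart (-0.90, adjusted p = 0.791). The CpG-free contig 4573805 had 9, 11, 5 and 10 counts in low-low and 15, 19, 15 and 11 in standard-low (adjusted p = 0.799). Its 196 bases hold no CpG, and how its reads came to be in the captured DNA was not tested.

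**Figure D4:**
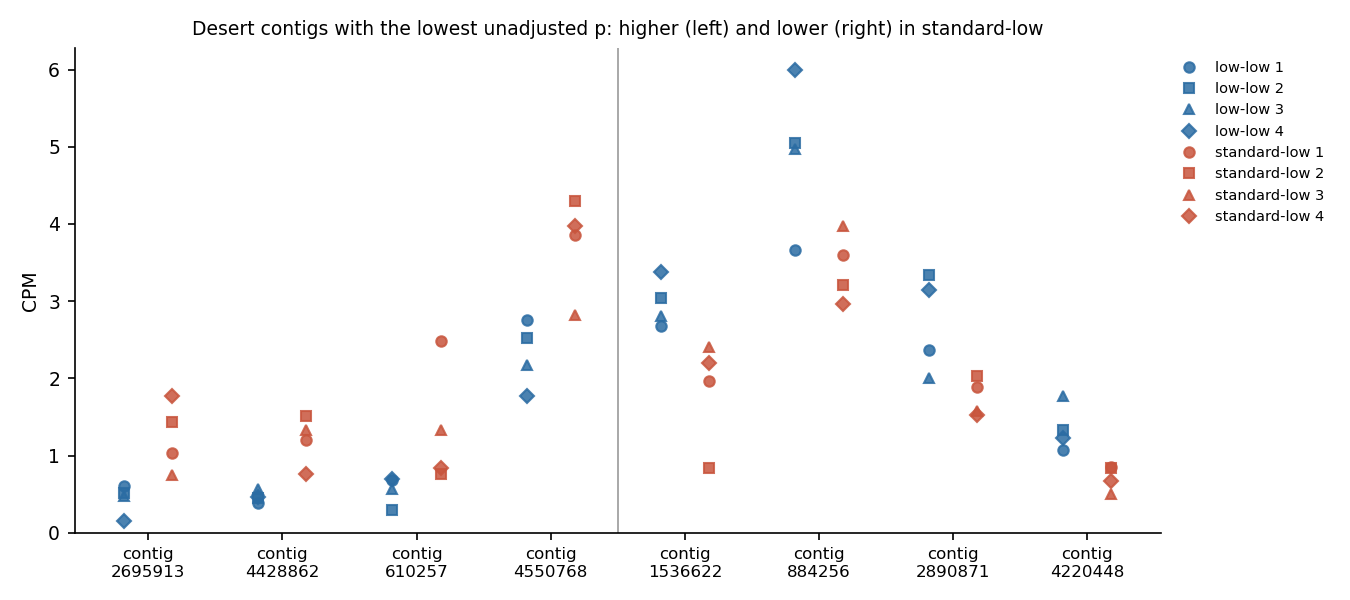
CPM in each library for the 4 desert contigs with the lowest unadjusted p among those higher in standard-low (left of the line) and the 4 among those lower (right). The groups overlap for contigs 884256 and 2890871 and are apart for the other 6, and none passed the adjusted threshold.

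Summing desert contigs by nearest gene gave 734 sums among 34759 sums of gene and distance class. At an edgeR adjusted p of 0.05, 0 of the 734 passed against 0.00288% of all sums, and the lowest adjusted p among them was 0.846. DESeq2 and voom also called 0. At an unadjusted p under 0.05, 25 were higher in standard-low, 3.41% against 2.24% of all sums, and 6 were lower, 0.817% against 3.5%. The 8 contigs beside Lmo4, a LIM-domain transcription cofactor, summed to 9.85, 12.0, 11.2 and 13.0 CPM against 14.4, 15.7, 13.4 and 14.1 in standard-low. The groups did not overlap, and the log2 fold change was 0.33 ± 0.11 (SE; edgeR adjusted p = 0.846). The 2 contigs beside Clec14a, an endothelial lectin gene, had 2.10 ± 0.464 and 3.37 ± 0.301 CPM (SD, n = 4; edgeR adjusted p = 0.846). The contig at 201024 bases from Ube2cbp had 0.711 ± 0.126 and 1.48 ± 0.35.

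The lowest p among decreases came from sums of 1 contig. The contig 289039 bases from Htr1a, which encodes the serotonin receptor 1A, had 7.33, 8.39, 7.63 and 6.68 CPM against 6.85, 4.47, 5.72 and 6.51 in standard-low, and low-low 4 lay below standard-low 1 (log2 fold change -0.35 ± 0.14, SE; edgeR adjusted p = 0.846). Those beside the predicted genes Gm11114 and Gm6584 had ratios of 0.782 and 0.77. Of the 6 nearest genes with most desert contigs, Gm9915, AC101702.1, Rbfox1, Gm5257, n-R5s30 and a 5S rRNA copy, the log2 fold changes ran from -0.037 to 0.15. The sum beside Rbfox1 was 43.5 ± 2.81 CPM for low-low and 45.7 ± 4.20 for standard-low.

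By role, contigs beside developmental regulators had 7 of 115 higher, 6.09%, and 0 lower at an unadjusted p under 0.05, against 4.02% and 1.14% of all desert contigs and 2.93% and 2.76% of the table. Their median log2 fold change was 0.10, against 0.05 over all desert contigs and 0.0017 over the table. They summed to 213 ± 10.4 CPM for low-low and 220 ± 14.8 for standard-low (n = 4, SD), with the groups overlapping. Beside Zfhx3 the sum was 42.2 and 42.9 CPM in the 2 groups, beside Irx1 32.2 and 34.1, and beside Irx4 15.3 and 13.8. Beside Satb1, which encodes a chromatin organiser, 6 contigs summed to 8.50 and 10.6 CPM, with a median log2 fold change of 0.46 and 0 contigs at that level. Beside the adhesion genes 1 of 82 was higher and 1 lower, 1.22% each, with a median of 0.05 and sums of 167 ± 5.93 and 170 ± 3.23 CPM. Adjusted over all contigs with edgeR, 0 passed in either list.

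Among the 92 blocks of at least 10 contigs, 66 had a ratio of standard-low to low-low above 1, and the ratios ran from 0.93 to 1.18. The same 8 libraries lie behind each ratio, so the blocks do not count as separate evidence. Over all desert contigs the ratio was 1.03, and 1.01 without standard-low 2. Block ratios without that library are not given. The groups were apart in 2 blocks that were higher in standard-low, 2.17% of the 92, and in 1 that was lower, 1.09%, against 1.63% and 1.61% of single contigs in the table. A block sums many contigs, so its share is not of like kind with that of single contigs. The 3 blocks, singled out after their values were seen, were not tested and are given as values only. The block of 39 contigs beside Efnb2 had 82.1, 82.2, 79.8 and 83.4 CPM against 87.6, 92.2, 84.6 and 89.2 in standard-low, all above low-low. A block of 10 on the same chromosome, from 6471565 to 7062086, had 17.6 ± 1.28 and 20.3 ± 0.83 CPM. The block of 30 contigs beside Zfp36l1, which encodes an RNA-binding protein of messenger RNA decay, had 49.3 ± 1.09 and 47.4 ± 0.303, lower in all 4 standard-low libraries. The fullest block, beside Gm9915, had 149 ± 7.5 and 147 ± 11.3 CPM.

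The thresholds of the rule divided neighbouring values as follows. The nearest contig inside the distance limit, 1707867 at 200137 bases from Trim29, had 4.32 CPM, and the nearest outside, 1525633 at 199962 bases from a copy of U6, had 1.44. Contig 2048974, at 100 bits, had 1.05 CPM, and contig 1208426, at 99 bits and left out, had 2.99.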

How the data were processed

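The authors deposited whole-number read counts per assembled contig, with its sequence and, in the contig name, its best mouse match, per the file headers. FastQC and BWA are the tools named per the submitters' processing notes. Their versions and roles, the assembler and the mouse build are not given in those notes. Library names in the header are separated by spaces and values by tabs, and the names were taken in header order. The desert contigs and all lists were chosen with earlier results of these data known. The test of diets was edgeR 4.0.16 (R 4.3.3) over all 548060 contigs, with TMM factors, glmQLFit, a two-sided glmQLFTest and Benjamini-Hochberg adjustment over the table. A filter at a mean of 10 counts removed 0 contigs, so all 3161 desert contigs were tested. Nearest-gene sums used the same factors. Library sums and medians were compared by exact permutation. Named contigs were those past the threshold, the 4 of lowest p in each direction, the 4 of highest CPM per kilobase and the 4 farthest from a gene. Named neighbourhoods were the 6 nearest genes with most contigs and the 3 sums of lowest p in each direction. Alternatives were DESeq2 1.42.0, limma 3.58.1 voom, RLE factors, other filters and thresholds, a replicate block and leaving out each library. The test was checked on simulated counts of all contigs, drawn with an assumed spread, and 5 of 547860 unchanged contigs were called. Replicate libraries were not duplicates, since counts differed at 2964 or more of the 3161 desert contigs in every pair within a group.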

Additional observations from a re-analysis of the deposited data

Results flagged for a closer look

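In 86 groups of 4 libraries behind the values above, 5 had a library apart from the other 3 by Dixon's criterion, and chance flags about 1 in 20 groups. Low-low 4 was the highest of its group for the summed contigs from 10 kb to 200 kb from a gene, at 66212 CPM. Standard-low 2 was the highest for contig 2933796, at 1.94 CPM, and for the desert contigs beside AC101702.1, at 83.8 CPM. Low-low 3 was the lowest beside Gm5257, at 60.0 CPM, and low-low 1 the highest beside Gm11114, at 6.57 CPM.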

How the results depend on the processing

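The count of desert contigs past the threshold was 0 in all 18 alternatives and that of nearest-gene sums 0 in all 12. Some of the alternatives for contigs could not have raised the count. Dropping the filter changed nothing, since it removed 0 contigs. A longer distance or a higher match score only took a subset of contigs of which 0 had passed. The log2 ratio of summed desert CPM was 0.044, kept its sign in all 16 alternatives, and ran from 0.010 without standard-low 2 to 0.0696 without standard-low 3, where the exact permutation p was 0.0286. For the ratio of desert to inside-gene counts, leaving out standard-low 3 likewise gave 0.14 (exact permutation p = 0.0286), against 0.029 to 0.096 without any of the other libraries. The lower captured DNA of desert contigs held in all 14 alternatives, from -0.47 to -0.13 on the log2 scale. Those that left out a library could not reverse the sign, since the difference was negative in all 8 libraries. Both ends of the range came from other alternatives. The value of -0.47 was that of a higher match score, and -0.13 that of the comparison with nearer contigs outside genes. The 8 contigs with the lowest p kept their direction and stayed above the threshold in all 11 alternatives each, with the lowest adjusted p at 0.0861. The deviations of same-numbered libraries had correlations of -0.010 to 0.044, and 4 of 8 libraries correlated best with their own number. These values do not settle whether the numbers mark pairs. With the replicate number as a block, the log2 ratio of summed CPM was 0.043 (exact sign-flip permutation p = 0.375, where 4 pairs allow 0.125 at the lowest), 0 desert contigs passed, and the count over the whole table was 206 in place of 147. Without standard-low 2 the desert contigs at an unadjusted p under 0.05 numbered 89 higher and 62 lower, in place of 127 and 36, and with a filter at a mean of 20 counts, which leaves 1203 of them, 49 and 19. DESeq2 gave 47 and 12. At the median of 16.9 counts per library, small changes in single contigs may be missed.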

Other observations

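The desert contigs were unevenly spread over mouse chromosomes. They were 4.56% of the autosomal matched contigs on chromosome 18, 4.18% on chromosome 3, 3.97% on chromosome 8 and 3.58% on chromosome 1, which held 370, the most of any. Chromosomes 11, 4 and 2 had the lowest shares, at 0.288%, 0.466% and 0.661%. Summed by chromosome, the ratio of standard-low to low-low CPM was above 1 on 17 of 19 chromosomes and ran from 0.995 on chromosome 11 to 1.07 on chromosome 6, with the same 8 libraries behind each value.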
